A study of Mus musculus with 6 samples.

Results

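Complement and coagulation genes were examined in RNA-seq counts from 6 mouse livers, 3 from wild-type (WT) C57BL/6J males and 3 from males of that strain that lack Zpbp2 on both chromosomes (Zpbp2 KO). Zpbp2 encodes a relative of the sperm protein that binds the egg coat. All animals were 12 weeks old and no treatment is named for either group. Poly(A) RNA from 250 ng of total RNA of each liver was read in pairs of 100 cycles. The genes were chosen by function, as a list of 39 that holds 19 of the complement system and 20 of coagulation and fibrinolysis. Of these, 38 matched an ID among the 37991 of the count table, namely all 19 complement genes and 19 of the coagulation genes, and all 38 passed the filter on low counts. Klkb1, plasma prekallikrein, was matched to no ID and was not analysed here. The sources used here do not say which part of Zpbp2 is removed.

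Complement is a cascade of plasma proteases and binding proteins that tags microbes and damaged cells. The lectin and classical pathways cut C4 and C2, all pathways meet at C3, and the terminal proteins assemble a pore called the membrane attack complex. Coagulation is the other cascade, in which thrombin turns fibrinogen into fibrin, antithrombin and protein C restrain it, and plasmin later dissolves the clot. Hepatocytes secrete most proteins of both systems, whereas C1q and properdin come largely from macrophages and factor VIII from endothelium.

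Zpbp2 itself had 4, 13 and 7 counts in WT replicates 1, 2 and 3 and 0 in each Zpbp2 KO library, where 0 allows up to 3 counts or 0.0584 to 0.0627 CPM (counts scaled to a common library size). Total counts ran from 37904891 to 52955687 per library. None of the hepatocyte markers was at 0 in any library. One library stood apart. Zpbp2 KO replicate 2 had the lowest level of the 6 livers for all 14 Kupffer cell markers and for 13 of 14 endothelial markers, while it was lowest for 24.0% of all tested genes. The log2 fold changes of the complement and coagulation genes named for being low in that library are given with and without it.

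No complement or coagulation gene was called different between the genotypes. In the quasi-likelihood test of edgeR, adjusted by Benjamini and Hochberg's method over all 14686 tested genes, 0 of 38 members had an adjusted p below 0.05, against 0.0136% of all tested genes (2 genes, both lower), and the smallest adjusted p of a member was 0.798. At an unadjusted p below 0.05 there were 2 members, both of coagulation and both higher, against 5.79% of all tested genes (2.86% higher and 2.93% lower). The other tools also called none of the members (0 by DESeq2, which called 0.517% of all tested genes, and 0 by limma-voom, with 1 and 2 members at an unadjusted p below 0.05). In 5 of 38 members the groups did not overlap (4 higher and 1 lower in Zpbp2 KO), against 11.6% of all tested genes (5.56% higher and 6.01% lower). Both counts lie near the background and are no result about the members.

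The same fit bounded how far each member could differ. Log2 fold changes, Zpbp2 KO over WT, ran from -0.24 to 0.28. The 95% interval of the fold change lay within 1.5-fold in both directions for 36 of 38 members, and within 2-fold for all 38. Of all tested genes 52.0% had an interval within 1.5-fold, and of the 3430 with a mean of at least 40 CPM, a limit chosen after the values were seen, 84.0% had one. The 2 members with a wider interval were Hc (0.654 to 1.10-fold) and C8g (0.977 to 1.51-fold).

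**Figure D1:**
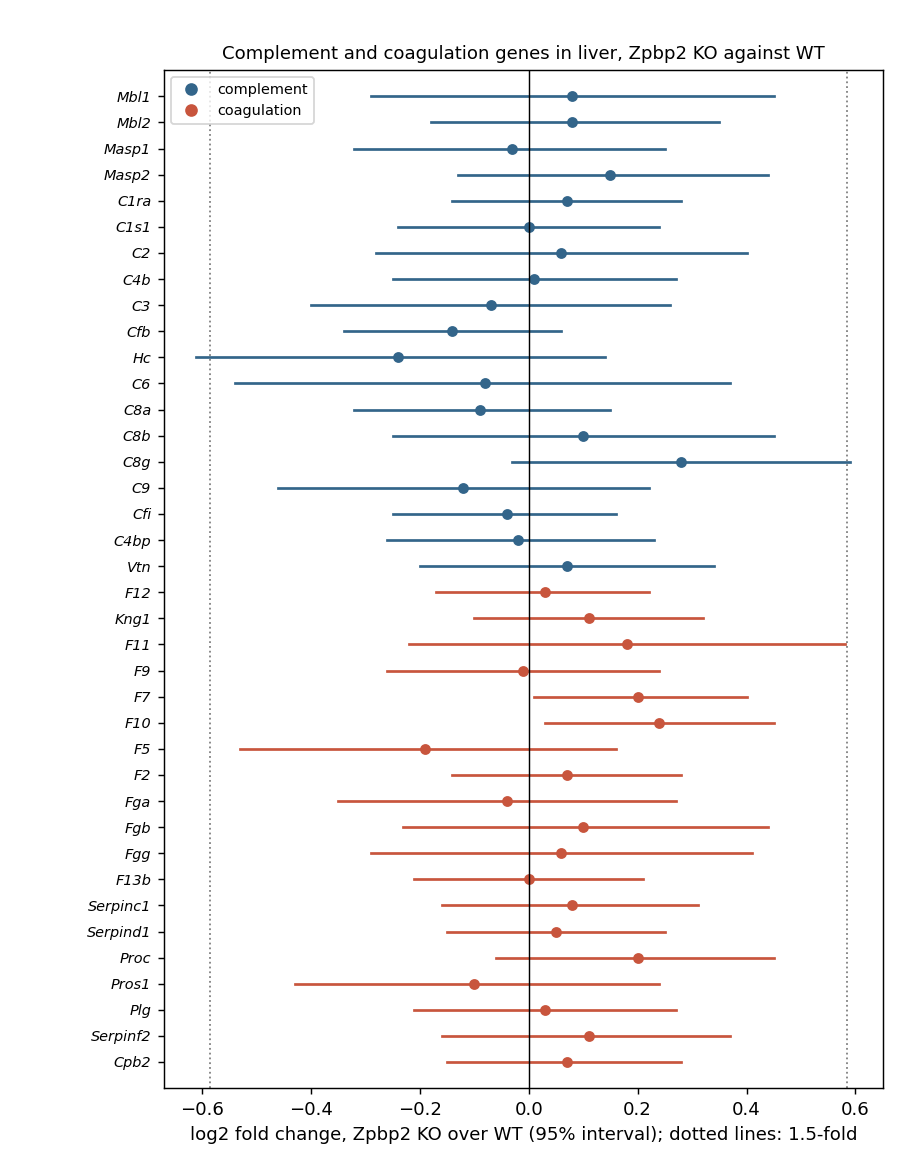
Log2 fold change of each member gene, Zpbp2 KO over WT (x axis), with its 95% interval from the edgeR fit on 3 livers per group, complement in blue and coagulation in red. All points lie between -0.24 and 0.28, and the dotted lines mark a change of 1.5-fold in either direction.

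Levels were compared between genes per kilobase of transcript. In WT liver they spanned from 18.4 ± 2.18 CPM per kb for Pros1, the gene of the anticoagulant protein S, to 1980 ± 294 CPM per kb for Fgg (SD, n = 3). Fga followed at 1930 ± 235 CPM per kb, within the spread of Fgg, and the third fibrinogen chain, Fgb, stood lower at 1130 ± 151. Vtn, vitronectin, which blocks the attack complex and binds cells, led complement at 1450 ± 33.3 CPM per kb, and C3, the protein on which all pathways converge, followed at 1310 ± 195, a difference within the spread of C3. The lowest complement levels per kb of transcript were those of C2 (32.3 ± 3.17) and Masp1 (34.2 ± 1.60 CPM per kb), proteases of early steps. On that length they did not differ beyond their spread. Order depends on the length used, since some transcript models carry long untranslated ends. The counts are labelled CDS, and whether they cover coding sequence only is not given. Per kilobase of coding sequence, the WT means of Fgb, Fgg and Fga were 2980, 2560 and 2100 CPM, that of Fgb being the highest. Serpinc1 stood at 1520 CPM on that length, in place of 426 per kb of transcript. C2 stayed the lowest of complement at 37.4 CPM per kb of coding sequence, with Cfb at 56.1 and Masp1 at 86.5.

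**Figure D2:**
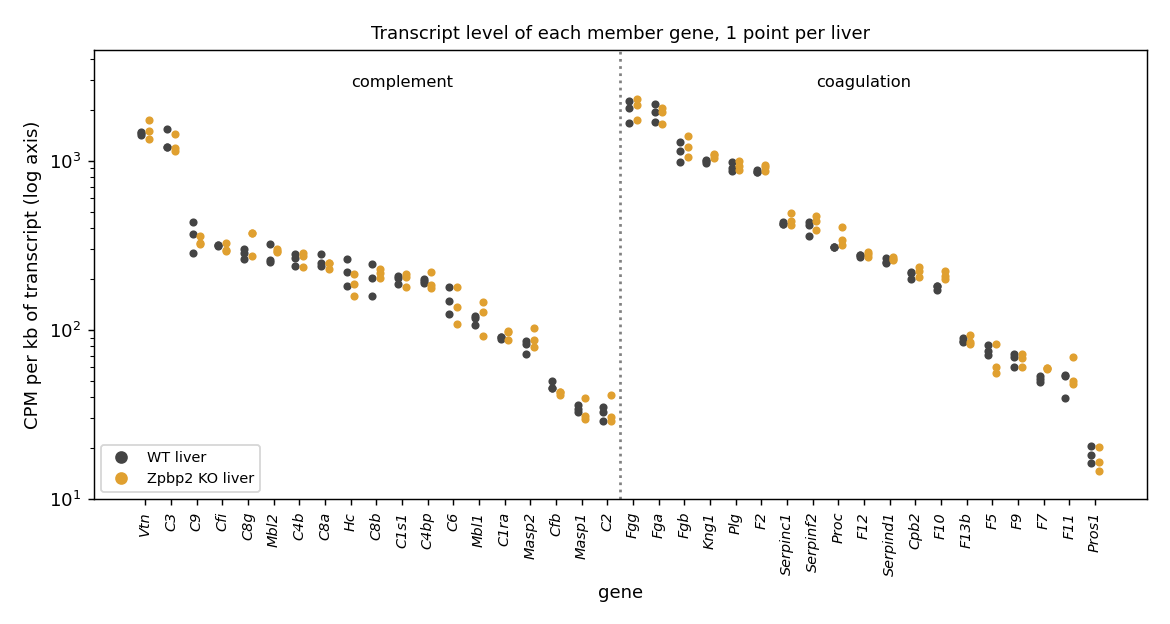
Level of each member gene in CPM per kb of transcript (y axis, log scale), 1 point per liver, WT in dark grey and Zpbp2 KO in orange, complement on the left and coagulation on the right, each ordered by the WT mean. The points of both genotypes overlap for all but 5 genes, over a range from Pros1 (18.4 in WT) to Fgg (1980 in WT).

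The lectin and classical pathways start with molecules that recognise a surface and the proteases they carry. Mbl1 and Mbl2 encode mannose-binding lectins, Masp1 and Masp2 their proteases, and C1ra and C1s1 the proteases of C1. The median log2 fold change of the 6 genes was 0.08 (range -0.03 to 0.15), with 5 of 6 above 0 and 0 at an unadjusted p below 0.05. By level per kb of transcript, Mbl2 was the highest in WT liver (277 ± 39.2) and Masp1 the lowest. Masp2, the protease that cuts C4 and C2, had the smallest p of this group. Its levels were 220, 264 and 254 CPM in WT replicates 1, 2 and 3 and 243, 313 and 265 CPM in Zpbp2 KO replicates 1 to 3, with overlap (log2 fold change 0.15 ± 0.124 (SE), adjusted p = 0.825 by edgeR). The exons of Masp2, untranslated parts included, share 1817 bases with Tardbp on the other strand, a gene at 101 ± 16.2 CPM in WT liver. Whether counting used strand is not given, so reads of the 2 genes may not be told apart. How much of the shared stretch is coding was not examined.

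Among the genes of the convertases and their substrates, differences from WT ran from -0.24 to 0.06 on the log2 scale. C2, C4b, C3, Cfb and Hc, the gene of complement C5, gave a median of -0.07 on the log2 scale, with 3 of 5 below 0. C3 was at 6140, 7900 and 6190 CPM in WT and at 5840, 6080 and 7360 CPM in the knockout livers, the high liver being replicate 2 in WT and replicate 3 in the knockout. Cfb, the protease subunit of the alternative convertase, was the member with the groups apart in the lower direction. It stood at 124, 137 and 125 CPM in WT and at 113, 117 and 118 CPM in the knockout livers (log2 fold change -0.14 ± 0.0878 (SE), adjusted p = 0.798 by edgeR). Hc was at 985, 1420 and 1190 CPM in WT and at 859, 1010 and 1170 CPM in the knockout livers, which overlapped (-0.24 ± 0.163, adjusted p = 0.801 by edgeR). Exons of C2 and Cfb overlap those of the read-through model Gm20547, which held 1 count in all libraries together, and how reads that lie in more than 1 gene were counted is not given. C4b has a near copy, C4a, and reads of the 2 may have been split between them.

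The terminal genes had the widest spread of the role groups among WT livers. C6, C8a, C8b, C8g and C9 encode parts of the attack complex, and their median coefficient of variation was 18.4% over the WT livers and 6.10% over the Zpbp2 KO livers, against 11.2% and 14.9% over all tested genes. C9, which forms the ring of the pore, was the highest in WT liver per kb of transcript (363 ± 72.9) and C6 the lowest (150 ± 27.5). Per kb of coding sequence C8g (533) and C8a (526) stood above C9 (441), and C6 stayed the lowest (187). C9 was at 586, 884 and 757 CPM in WT replicates 1 to 3 and at 663, 732 and 658 CPM in the knockout livers, so WT replicates 1 and 2 bracketed the knockout. C8g, the lipocalin chain of C8, had the smallest p of all complement members. Its levels were 301, 325 and 344 CPM in WT and 430, 431 and 316 CPM in the knockout livers. Knockout replicates 1 and 2 lay above WT and replicate 3 within it (log2 fold change 0.28 ± 0.136 (SE), adjusted p = 0.798 by edgeR). It was 0.41 without replicate 3 (adjusted p = 0.278 by edgeR), 0.21 without replicate 1 or without replicate 2, and 0.13 with offsets for transcript length and GC content. The median of the 5 genes was -0.08, with 2 above and 3 below 0.

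Regulators of complement had the smallest spread among WT livers of its role groups (median coefficient of variation 2.29%). Cfi, the protease that inactivates C3b and C4b, was at 660, 656 and 649 CPM in WT and at 610, 678 and 619 CPM in the knockout livers, a coefficient of variation of 0.866% in the first and 5.81% in the second. C4bp, its cofactor for C4b, and Vtn had log2 fold changes of -0.02 ± 0.108 and 0.07 ± 0.117. Vtn had the highest level of the 3 per kb of transcript and C4bp the lowest (195 ± 5.81). Per kb of coding sequence Vtn stayed the highest in WT (1770), but Cfi (362) lay below C4bp (422).

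Contact phase and intrinsic pathway genes gave a median of 0.07 on the log2 scale over 4 genes, with 3 above 0. Kng1, high-molecular-weight kininogen and the source of bradykinin, had the highest level per kb of transcript (991 ± 26.5 in WT) and F11 the lowest (49.0 ± 8.33). Kng1 was higher in each Zpbp2 KO liver than in any WT liver, at 1820, 1760 and 1850 CPM in WT and 1890, 2000 and 1980 CPM in the knockout. The difference was small (0.11 ± 0.0909 (SE), adjusted p = 0.827 by edgeR). Its paralogue Kng2, which may share reads with it, stood at 204 to 228 CPM in WT and at 230 to 264 CPM in the knockout (0.20 ± 0.0976, adjusted p = 0.798 by edgeR). F11, which contact activation turns on, differed by 0.18 ± 0.175. F12, the contact factor, differed by 0.03 ± 0.0852, and F9, the haemophilia B factor on chromosome X, by -0.01 ± 0.109.

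Factor VII and factor X were the 2 members with an unadjusted p below 0.05. F7 encodes the protease that tissue factor activates, F10 the protease that cuts prothrombin, and both genes lie side by side on chromosome 8, followed by Proz, in the RefSeq order of GRCm38.p6. F7 was at 91.6, 99.5 and 95.7 CPM in WT and at 110, 109 and 111 CPM in the knockout livers. F10 was at 432, 453 and 455 CPM in WT and at 518, 561 and 502 CPM in the knockout livers. For both, every knockout liver lay above every WT liver. Log2 fold changes were 0.20 ± 0.0851 for F7 (SE, adjusted p = 0.798 by edgeR) and 0.24 ± 0.0908 for F10 (adjusted p = 0.798 by edgeR). Each missed the threshold once adjusted, and adjusted p ran from 0.384 to 1.00 for F7 and from 0.305 to 1.00 for F10 over 15 alternatives. Leaving out any 1 of WT replicates 1, 2 and 3 or Zpbp2 KO replicates 1 and 2 left 0 coagulation members at an unadjusted p below 0.05, and leaving out Zpbp2 KO replicate 3 left 3. Proz, protein Z, the cofactor that inhibits factor Xa, differed by 0.03 ± 0.104.

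The other genes of the common pathway lay on either side of 0. F2, prothrombin, had the highest level of the 4 per kb of transcript (863 ± 11.5 in WT) and F7 the lowest (51.4 ± 2.14). F2 was at 1710, 1740 and 1700 CPM in WT and 1820, 1870 and 1720 CPM in the knockout livers, which overlapped (0.07 ± 0.0912). F5, the cofactor of factor Xa, was at 556, 602 and 525 CPM in WT and at 416, 451 and 612 CPM in the knockout livers. Knockout replicates 1 and 2 lay below WT and replicate 3 above it (-0.19 ± 0.151 (SE), adjusted p = 0.825 by edgeR). Without replicate 3 the log2 fold change of F5 was -0.37 (adjusted p = 0.278 by edgeR), and without replicate 1 it was -0.08.

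The 3 fibrinogen chains followed 1 order of livers within each genotype. Fga was at 4360, 5580 and 5000 CPM in WT and at 4980, 5310 and 4240 CPM in the knockout livers. Fgb stood at 3720, 4870 and 4310 CPM in WT and at 4570, 5290 and 3980 CPM in the knockout livers, and Fgg at 2810, 3790 and 3450 and at 3590, 3930 and 2930 CPM. All 3 were lowest in replicate 1 and highest in replicate 2 of WT, and highest in replicate 2 and lowest in replicate 3 of the knockout. Their log2 fold changes were -0.04 ± 0.134, 0.10 ± 0.146 and 0.06 ± 0.153. F13b, the carrier chain of the enzyme that crosslinks fibrin, had the lowest level per kb of transcript in this group (87.1 ± 2.38 in WT), and its fold change was 0.999 (95% interval 0.865 to 1.15).

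That order of livers was not particular to fibrinogen. Mbl1, Vtn, Cpb2 and F12, on other chromosomes, had it too, while other members such as C3 did not. Mbl1 was at 168, 188 and 183 CPM in WT and at 200, 228 and 143 CPM in the knockout livers. The fibrinogen genes lie beside each other on chromosome 3. The sequence before their starts is shown, 5′ to 3′ on the strand of the gene. It comes from RefSeq on GRCm38.p6, a later build than the mm9 of the counts. Of the 39 genes, 31 had a promoter entry. Capitals mark the letters CTGGGAA, the core of the IL-6 response element of acute phase genes, searched on both strands in the 200 bases before the start.
Fgg, chr3:83007524-83007723, plus strand: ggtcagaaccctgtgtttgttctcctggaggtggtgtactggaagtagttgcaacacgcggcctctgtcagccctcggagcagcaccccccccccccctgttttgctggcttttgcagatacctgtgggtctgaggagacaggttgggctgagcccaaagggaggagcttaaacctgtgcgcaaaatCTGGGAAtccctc
Fga, chr3:83025953-83026075, plus strand, ending where a longer annotated transcript begins: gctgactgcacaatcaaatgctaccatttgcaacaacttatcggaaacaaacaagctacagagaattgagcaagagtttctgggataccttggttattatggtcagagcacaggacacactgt
Fgb, chr3:83049864-83050063, minus strand: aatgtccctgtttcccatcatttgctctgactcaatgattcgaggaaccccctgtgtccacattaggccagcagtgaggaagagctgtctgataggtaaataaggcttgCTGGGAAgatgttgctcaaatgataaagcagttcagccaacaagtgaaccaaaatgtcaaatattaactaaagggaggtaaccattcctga
Fgb and Fgg held the motif. It was found in 5 of the 31 member genes (16.1%) and in 8.37% of all 27025 genes with an entry. These are matches of letters, not sites shown to be bound. The other 3 were C1ra and Masp2 of complement and F9 of coagulation, and the lines below give the match of the latter pair, which lies in no longer annotated transcript, with the bases on either side.
Masp2, chr4:148602479-148602509, plus strand: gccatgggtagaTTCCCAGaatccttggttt
F9, chrX:59999370-59999400, plus strand: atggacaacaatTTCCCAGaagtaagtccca
Log2 fold changes of the 5 genes with the motif ran from -0.01 (F9) to 0.15 (Masp2).

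Of 18 transcription factors of hepatocytes listed, 0 were called by edgeR, and the median over the list was 0.00. At an unadjusted p below 0.05 there was 1, which was lower, against 5.79% of all tested genes (2.93% lower). That gene was Prox1, a homeobox factor that hepatocytes and lymphatic endothelium share, at 140, 109 and 165 CPM in WT and 100, 93.2 and 77.7 CPM in the knockout livers (-0.61 ± 0.164 (SE), adjusted p = 0.659 by edgeR). Its groups were apart, as were those of 6.01% of all tested genes in the lower direction. With offsets for transcript length and GC content Prox1 was at -0.48 (unadjusted p = 0.0518 by edgeR). Ppara, the fasting-linked nuclear receptor, had the next smallest p (-0.51 ± 0.262, adjusted p = 0.798 by edgeR).

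Anticoagulants had a median log2 fold change of 0.06. Serpinc1, antithrombin, was the highest of the 4 per kb of transcript (426 ± 4.98 in WT) and Pros1 the lowest. Serpinc1 was at 2100, 2110 and 2140 CPM in WT and 2170, 2450 and 2070 CPM in the knockout livers (0.08 ± 0.102). Its exons, untranslated parts included, share 2942 bases with Zbtb37 on the other strand, a gene at 4.42 ± 0.891 CPM in WT. The coding sequence of Serpinc1 is only 1395 bases long. Proc, protein C, was higher in each knockout liver than in WT, at 486, 486 and 489 CPM in WT and 533, 640 and 500 CPM in the knockout livers (0.20 ± 0.112 (SE), adjusted p = 0.798 by edgeR). Replicate 2 set much of that difference, which was 0.08 ± 0.0965 without it. Serpind1, heparin cofactor II, differed by 0.05 ± 0.0868 and Pros1 by -0.10 ± 0.146.

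Genes of fibrinolysis had a median log2 fold change of 0.07. Plg, plasminogen, was the highest per kb of transcript (915 ± 61.2 in WT) and Cpb2, a carboxypeptidase that slows fibrinolysis, the lowest (211 ± 10.7). All 3 were above 0, namely Plg (0.03 ± 0.103), Serpinf2, the inhibitor of plasmin (0.11 ± 0.115), and Cpb2 (0.07 ± 0.0946), and 0 had an unadjusted p below 0.05.

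Complement was then set against coagulation. Of the complement members 10 of 19 were above 0 and their median was 0.00, and of the coagulation members 14 of 19, median 0.07, against 52.9% above 0 and a median of 0.01 over all tested genes. The difference of the medians was -0.07 and changed sign without Zpbp2 KO replicate 1 (0.02). Summed over its members, complement took 1.82 ± 0.178% of the WT counts and 1.74 ± 0.121% of those of the knockout, and coagulation 2.55 ± 0.200% and 2.58 ± 0.121% (SD, n = 3). The ratio of the summed CPM, complement over coagulation, was 0.719, 0.735 and 0.685 in WT livers 1, 2 and 3 and 0.627, 0.637 and 0.763 in the respective knockout livers. Knockout replicates 1 and 2 lay below all WT livers and replicate 3 above them, so the groups overlapped.

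The same lists were then followed liver by liver. As a median over members of log2 CPM minus the WT mean, complement stood at -0.10, 0.09 and 0.02 in WT and at -0.10, 0.06 and -0.01 in Zpbp2 KO replicates 1 to 3. Coagulation stood at -0.05, 0.06 and 0.01 in WT and at 0.04, 0.14 and 0.03 in the knockout. WT replicate 1 was the lowest liver for 11 of 19 coagulation members, against 19.6% of all tested genes. Zpbp2 KO replicate 1 was the lowest for 9 of 19 complement members, against 16.0% of all tested genes. Zpbp2 KO replicate 2 was the highest liver for 11 coagulation and 8 complement members, where it was the highest for 26.6% of all tested genes. The coagulation median without that library was 0.01, and the complement median was -0.03.

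**Figure D3:**
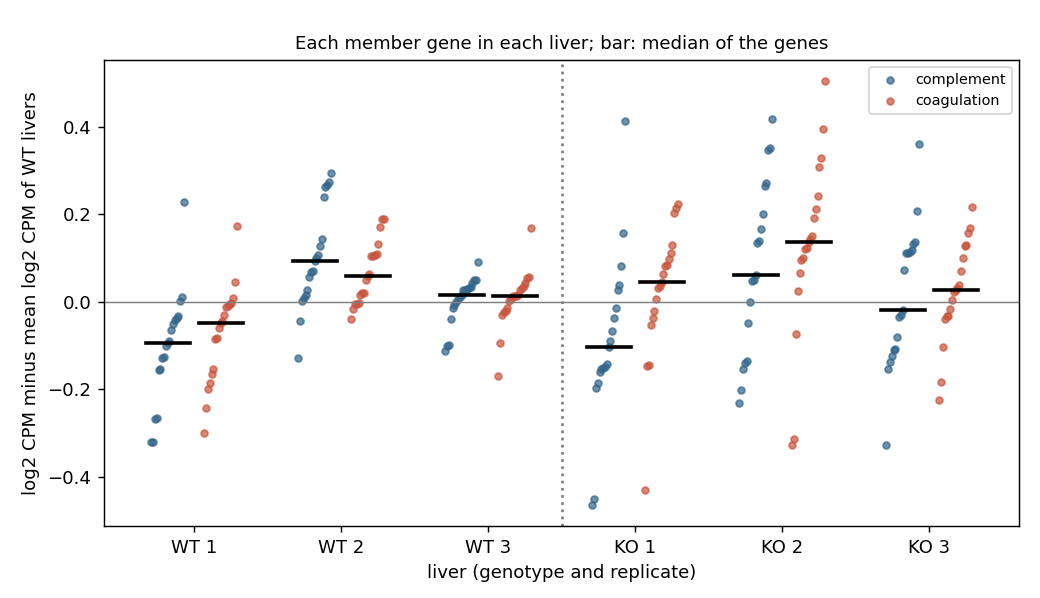
Log2 CPM of each member gene minus its mean over the WT livers (y axis) in each liver (x axis), 1 point per gene, complement in blue and coagulation in red, with a bar at the median. The coagulation median is highest in KO replicate 2 (0.14) and the complement median is lowest in WT and KO replicate 1 (-0.10 in each).

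Ratios between subunits of one complex cancel what a liver's genes share. The ratio Fgb to Fga, in CPM per kb of transcript, was 0.580, 0.593 and 0.586 in WT and 0.624, 0.676 and 0.637 in Zpbp2 KO livers, without overlap. Fgg to Fga was 0.982, 1.04 and 1.05 in WT and 1.10, 1.13 and 1.06 in the knockout, and C8b to C8a 0.642, 0.863 and 0.851 in WT and 0.887, 0.927 and 0.876 in the knockout, again without overlap. For each of these 3 the two-sided exact permutation test over livers gave p = 0.1, the smallest that 3 livers against 3 allow, and 0.286 after Benjamini-Hochberg adjustment over the 10 ratios computed. The ratio C8g to C8a was 1.05, 1.00 and 1.25 in WT and 1.64, 1.52 and 1.10 in Zpbp2 KO livers, with overlap (exact permutation p = 0.2). Offsets for transcript length and GC content changed the difference in log2 fold change from 0.14 to 0.22 for Fgb and Fga, from 0.10 to 0.04 for Fgg and Fga, from 0.19 to 0.11 for C8b and C8a, and from 0.37 to 0.17 for C8g and C8a.

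**Figure D4:**
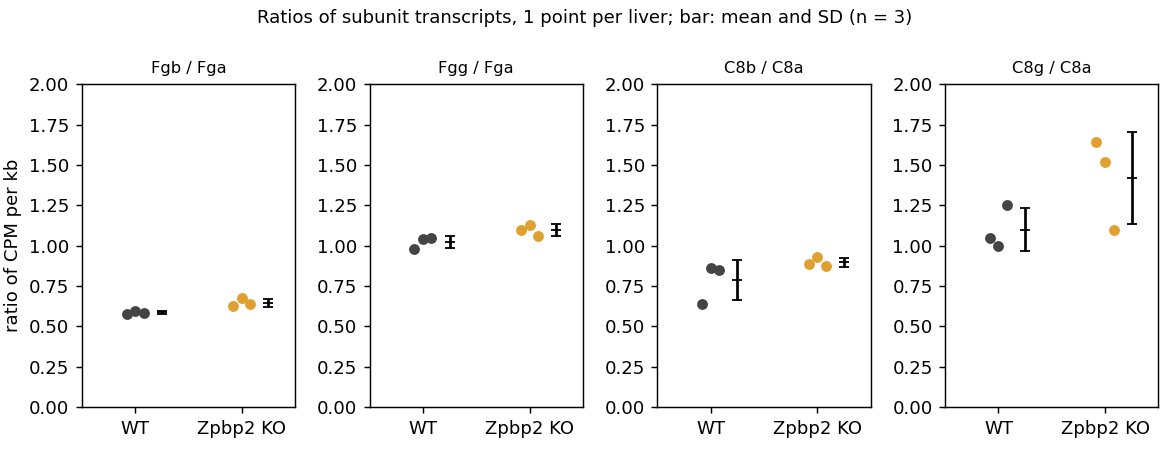
Ratio of CPM per kb for 4 pairs of subunit transcripts (y axis) in WT and Zpbp2 KO livers, 1 point per liver, with the mean and SD (n = 3) beside them. Fgb to Fga runs from 0.580 to 0.593 in WT and from 0.624 to 0.676 in Zpbp2 KO, and C8g to C8a overlaps.

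Other genes of both systems, from lists of textbook members, held 0 genes called by edgeR, and 3 at an unadjusted p below 0.05, against 5.79% of all tested genes. Of 17 other soluble complement genes tested, 0 had an unadjusted p below 0.05 and the median log2 fold change was 0.04. C4a, the near copy of C4b, had the smallest p. It stood at 30.3, 77.9 and 46.3 CPM in WT and at 43.0, 187 and 89.4 CPM in the knockout livers, which overlapped (1.05 ± 0.510 (SE), adjusted p = 0.798 by edgeR). That difference was 0.36 ± 0.418 without Zpbp2 KO replicate 2. C7, a terminal component, followed at 1.75 ± 0.125 and 1.44 ± 0.308 CPM (-0.27 ± 0.232). C1s2, a copy of C1s1, held 2 or 3 counts per library, and C1rb, a copy of C1ra, was matched to no ID and was not analysed here.

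Of 14 complement receptors and membrane regulators, 0 had an unadjusted p below 0.05 and the median was 0.08. Cd59a, which stops C9 from inserting, was at 46.6 ± 3.13 CPM in WT and 53.9 ± 6.36 CPM in the knockout livers (0.21 ± 0.116, adjusted p = 0.798 by edgeR), and Cr2, the B cell receptor for C3 fragments, at 0.297 ± 0.124 and 0.456 ± 0.271 CPM (0.61 ± 0.487). Among 25 other coagulation and fibrinolysis genes, an unadjusted p below 0.05 was found for 2 higher genes and 1 lower gene, all at low levels. Plat, tissue plasminogen activator, was at 0.455 ± 0.0687 and 0.754 ± 0.0688 CPM (0.72 ± 0.260, adjusted p = 0.798 by edgeR), and F13a1, the enzyme chain of factor XIII, at 0.170 ± 0.0519 and 0.365 ± 0.191 CPM (1.07 ± 0.463, adjusted p = 0.798 by edgeR). F13a1 also marks platelets. Of the 5 platelet markers tested, which include F13a1 itself, 5 were above 0. The summed level of all 9 listed, F13a1 among them, was 7.76 to 8.22 CPM in WT and 9.10 to 10.8 CPM in the knockout livers. Of these 9, 0 to 2 were at 0 in a library. The part of platelets in the F13a1 value was not tested. Of 6 genes listed for the vitamin K cycle and for cleavage and export of the factors, 5 were tested, with a median of 0.00. Vkorc1 was matched to no ID and was not analysed here. Ggcx, the carboxylase, was at -0.10 ± 0.135 and Lman1, the cargo receptor of factors V and VIII, at 0.06 ± 0.105.

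The C1q chains and several other genes of these lists were lowest in Zpbp2 KO replicate 2. They were named after their values were seen. That library was lowest for 8 and highest for 6 of the 17 other soluble complement genes tested. It was lowest for 7 and highest for 0 of 14 receptors and membrane regulators. Of 25 other coagulation and fibrinolysis genes it was lowest for 8 and highest for 3. It was lowest for 1 of 19 complement members, 2 of 19 coagulation members and 24.0% of all tested genes. C1qa, C1qb and C1qc, the chains of C1q, were at 34.7 ± 8.21, 36.2 ± 6.95 and 33.5 ± 6.70 CPM in WT livers. In Zpbp2 KO replicates 1 and 3 C1qa stood at 46.7 and 48.1 CPM, but in replicate 2 at 18.8 CPM. C1qb was at 51.6, 18.2 and 56.6 CPM and C1qc at 46.0, 17.8 and 49.6 CPM in Zpbp2 KO replicates 1 to 3. Properdin (Cfp), the C3b receptor gene Vsig4, the ficolin gene Fcna and the collectin gene Colec10 were also lowest in replicate 2, as was F8 (18.3, 7.30 and 14.5 CPM). The C1r and C1s protease genes, whose products bind C1q, were not lowest there, with C1ra at 261, 295 and 290 CPM and C1s1 at 526, 605 and 632 CPM in the same livers. In bulk RNA, fewer cells of a type and less RNA per cell cannot be told apart.

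With all 6 livers the log2 fold changes were 0.12 ± 0.330 for C1qa, 0.22 ± 0.364 for C1qb and 0.17 ± 0.339 for C1qc. Without Zpbp2 KO replicate 2 they were 0.45 ± 0.184, 0.58 ± 0.160 and 0.51 ± 0.164 (adjusted p = 0.810, 0.672 and 0.699 by edgeR). Cfp went from 0.15 ± 0.314 with all livers to 0.46 ± 0.154 without that library, and Vsig4 from 0.04 ± 0.426 to 0.45 ± 0.157 (adjusted p = 0.718 and 0.763 by edgeR). Fcna (-0.10 to 0.23), Colec10 (-0.02 to 0.27) and F8 (-0.14 to 0.16) each changed sign without it, with adjusted p of 0.873, 0.856 and 0.927. Summed Kupffer cell markers, which include the C1q genes and Vsig4, were 374 to 541 CPM in WT and 628, 210 and 671 CPM in Zpbp2 KO replicates 1 to 3, with none of the 14 at 0 in any library, and their part in the C1q values was not tested. Endothelial markers, which include F8, Vwf and Thbd of the coagulation lists, were 343 to 488 CPM in WT. They were 544, 218 and 396 CPM in Zpbp2 KO replicates 1 to 3, and their part in the F8 values was not tested. Hepatocyte markers were 124000 to 133000 CPM in WT and 138000, 144000 and 137000 CPM in the knockout, with 13 of 15 tested markers above 0 and a median of 0.16, and their part in the member values was not tested.

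**Figure D5:**
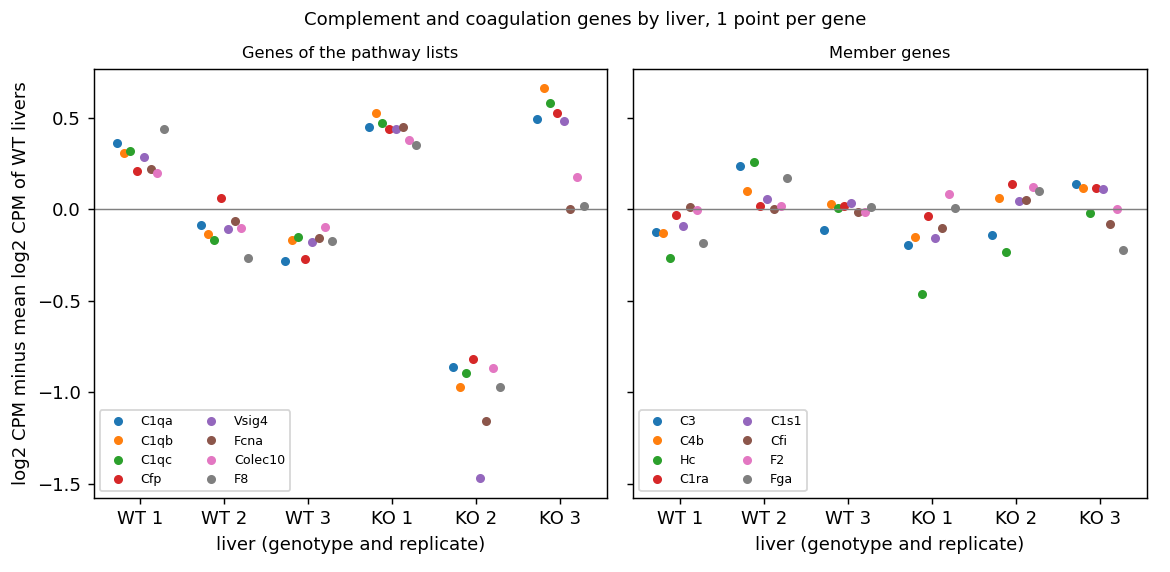
Log2 CPM minus the mean of the WT livers (y axis) in each liver (x axis), 1 point per gene, for 8 genes of the other pathway lists (left) and 8 member genes (right). C1qa, C1qb, C1qc, Cfp, Vsig4, Fcna, Colec10 and F8 are all lowest in KO replicate 2 (C1qb at 18.2 CPM). The 8 member genes, C1ra at 295 CPM among them, are not. The genes shown were picked after their values were seen. Of all members, 1 complement and 2 coagulation genes not shown were lowest in that library.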

How the data were processed

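Liver mRNA was captured on its poly(A) tails and converted with a directional kit, per the labels' protocols. The deposited values are counts, whole numbers of reads per Ensembl gene ID and library, and no value column was left unused (0 columns). They are labelled CDS, and whether reads outside coding sequence were counted is not given. STAR, Picard, HTSeq and the build mm9 are named per the submitters' processing notes, while the sources used here name no versions, annotation or strand setting. Symbols were found for 32919 of 37991 IDs (86.6%) in a GENCODE annotation and a RefSeq table. The counts were made on mm9, for which no gene positions are given. Transcript lengths came from principal transcripts on GRCm38 and promoter sequences, with their positions, from RefSeq on GRCm38.p6.

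Genes were kept by filterByExpr (minimum count 10), scaled by TMM and tested, 3 livers against 3, with edgeR 4.0.16 (quasi-likelihood test, two-sided, called at an adjusted p below 0.05) in R 4.3.3. Alternatives used DESeq2 1.42.0, limma 3.58.1 (voom), other scalings, filters and designs, and each library left out in turn. The fits were tested on simulated data. Per-liver deviations used log2(CPM + 0.05). Replicates of a group differed by a chi-square per gene of 19.9 to 102, so none was a repeat. The p-values set the genotype difference against the spread between these livers, which edgeR moderates across genes. PCR reads carry no molecular identifiers, so the limit set by a count of 0 covers counting error only.

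The member genes and lists were chosen with earlier results of these data known. Values are given in full for members at an unadjusted p below 0.05, the 4 with the smallest p in each system, the highest and lowest per length in each role and pairs of near copies, and for the other lists for genes at an unadjusted p below 0.05 or the 2 with the smallest p. Some genes that this rule picks are not reported here.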

Additional observations from a re-analysis of the deposited data

How the results depend on the processing

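No member was called by any alternative (0 complement and 0 coagulation members in each). Over all genes, DESeq2 called 27 higher and 49 lower and edgeR without a filter on low counts called 3 higher and 9 lower, against 0 and 2 in the report, and leaving out 1 library gave 0 to 1 higher and 2 to 4 lower. The 2 coagulation members at an unadjusted p below 0.05 became 1 with DESeq2, 1 with its size factors, 1 with library totals, 1 without a filter, 1 with offsets for transcript length and GC content, and 0 to 3 with 1 library left out. For complement that count was 0 to 2 with 1 library left out, the 2 being without Zpbp2 KO replicate 3. The coagulation median, 0.07, was 0.01 with length and GC offsets and 0.01 to 0.10 with 1 library left out, lowest without Zpbp2 KO replicate 2. The complement median ran from -0.05 to 0.08. Complement minus coagulation, -0.07, was -0.02 with length and GC offsets and -0.15 to 0.02 with 1 library left out, and the cause was not tested. Among 20 genes followed through the alternatives, 296 of 298 values kept their sign and side of the threshold, and Cr2 (-0.01) and Lman1 (-0.01) changed sign without Zpbp2 KO replicate 3, with ranges of -0.01 to 1.00 and -0.01 to 0.13 over the livers left out. With the replicate number as a block, 0 coagulation members had an unadjusted p below 0.05. Livers with the same number correlated by 0.142, 0.197 and -0.237 in their deviations from the group means, so the numbers were not taken as pairing the samples. Not every liver correlated best with its own number. Where a fit left 1 group with 2 livers, the spread was shared with the other group. Depth limits the genes of few counts, such as Cr2 and F13a1, whose values rest on 8 to 40 and 5 to 28 counts per library.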

Other observations

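Among other genes of these lists, some varied widely between livers of one genotype. Onecut1, a hepatocyte transcription factor, was at 6.08, 37.2 and 5.53 CPM in WT replicates 1, 2 and 3 and at 18.9, 26.0 and 33.5 CPM in the Zpbp2 KO livers. Cfd, the protease factor D, which fat tissue makes in quantity, was at 1.16, 0.0374 and 0.262 CPM in WT and at 2.47, 1.07 and 0.0958 CPM in the knockout. The ratio of C4a to C4b, in CPM per kb of transcript, was 0.0361 ± 0.0145 in WT and 0.0737 ± 0.0485 in Zpbp2 KO livers (SD, n = 3, two-sided exact permutation p = 0.2). All 6 tested erythroid markers were highest in Zpbp2 KO replicate 2, with a summed level of 360 CPM against 154 to 308 CPM in the other livers.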
